A study of Mus musculus with 18 samples.

Results

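The Kruppel-like factor genes Klf2, Klf3, Klf4, Klf6, Klf7, Klf10 and Klf13 (7 genes) were followed by their deposited TPM in regulatory T (Treg) cells of 6 mouse organs. They were taken by symbol, and 7 of 7 were found among the 55487 gene IDs of each table. TPM gives transcript abundance per transcript length as a share of the library, so levels of different genes can be set side by side. The cells were CD4+Foxp3+ Treg cells sorted without culture from lung, liver, peripheral blood, bone marrow, lymph node and spleen. Every group came from wild-type mice with no treatment, and each held 3 libraries of polyA RNA, 18 in all, prepared with a directional kit. The labels used here give no strain, sex, age or number of mice per library, no sorting gates and no account of how the organs were taken apart. They do not say that the libraries of a group came from separate mice, so the p-values below measure only the spread between these libraries, which may be technical.

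Kruppel-like factors are transcription factors that bind CACCC boxes and other GC-rich DNA through zinc fingers near the end of the protein, and some activate while others repress. KLF2 holds T cells at rest and drives S1pr1, which encodes a receptor used to leave tissue. KLF4 restrains proliferation in T cells and acts in monocyte differentiation, and KLF6 is induced quickly in many stressed or stimulated cells. KLF3 is mainly a repressor that recruits CtBP, KLF10 is induced by TGF-beta, KLF13 was described as an activator of Ccl5 in T cells, and KLF7 is a close relative of KLF6. Several of these genes respond within minutes to stimulation or to the handling of cells, as immediate early genes do.

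The promoters of 4 members are shown because their genes had the highest level of the 7 in every group (Klf2), the widest ranges between organs (Klf4 and Klf6) and the most CACCC boxes (Klf3). They are the 250 bases before the RefSeq start on GRCm38.p6, read 5′ to 3′ on the gene's strand, and capitals mark matches to the motifs searched. Klf2 is taken from chr8:72318812-72319061 on the plus strand, Klf3 from chr5:64803271-64803520 on the plus strand, Klf4 from chr4:55532476-55532725 on the minus strand and Klf6 from chr13:5861239-5861488 on the plus strand.
Klf2: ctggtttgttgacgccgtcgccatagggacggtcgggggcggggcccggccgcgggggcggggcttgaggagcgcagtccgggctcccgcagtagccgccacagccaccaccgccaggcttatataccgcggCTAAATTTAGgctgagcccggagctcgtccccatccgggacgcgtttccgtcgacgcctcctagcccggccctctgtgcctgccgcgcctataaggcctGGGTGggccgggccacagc
Klf3: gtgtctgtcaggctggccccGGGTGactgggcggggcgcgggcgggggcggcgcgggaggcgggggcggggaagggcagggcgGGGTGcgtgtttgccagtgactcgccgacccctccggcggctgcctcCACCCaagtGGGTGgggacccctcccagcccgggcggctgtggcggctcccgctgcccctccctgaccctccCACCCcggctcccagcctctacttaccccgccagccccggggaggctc
Klf4: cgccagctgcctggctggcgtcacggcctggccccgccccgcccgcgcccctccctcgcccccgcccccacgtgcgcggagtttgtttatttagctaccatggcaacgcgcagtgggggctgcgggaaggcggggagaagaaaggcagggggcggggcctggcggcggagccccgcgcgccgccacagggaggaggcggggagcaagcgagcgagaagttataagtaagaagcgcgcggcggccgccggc
Klf6: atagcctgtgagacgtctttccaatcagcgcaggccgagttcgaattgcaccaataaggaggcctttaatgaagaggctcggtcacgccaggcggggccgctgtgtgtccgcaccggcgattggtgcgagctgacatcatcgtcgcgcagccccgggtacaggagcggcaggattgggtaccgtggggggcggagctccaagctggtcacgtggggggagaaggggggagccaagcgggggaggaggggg

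On both strands, from 250 bases before to 50 after the start, 4 motifs were searched: the Kruppel-like factor box CACCC, the full palindromic cAMP response element, the forkhead motif GTAAACA, and a MEF2 pattern of CTA and TAG with any 4 bases between them. The Klf2 promoter held 1 CACCC box at position -19 and 1 MEF2 match at -118, where -1 is the base before the start. MEF2 factors are known activators of Klf2, and 3.7% of the 27025 RefSeq promoters of this length held such a match. The Klf3 promoter held 5 CACCC boxes and the Klf7 promoter 3, on a motif found in 56.7% of the promoters. Klf13 held 1 CACCC box at -22, while the Klf4 and Klf6 windows held none of the 4 motifs. None of the 6 members with a RefSeq promoter held the cAMP response element, present in 1.9% of promoters, or the forkhead motif, present in 3.5%. These matches describe letters in a window and no binding was measured.

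In the mm10 (GRCm38) annotation used here, Klf2 (ENSMUSG00000055148) lies at chr8:72319033-72321656 on the plus strand with 1 transcript of 3 exons. Klf3 (ENSMUSG00000029178) lies at chr5:64803388-64832901 (plus), Klf4 (ENSMUSG00000003032) at chr4:55527143-55532466 (minus) and Klf6 (ENSMUSG00000000078) at chr13:5861482-5870394 (plus). Klf7 (ENSMUSG00000025959) lies at chr1:64029447-64122282 (minus), Klf10 (ENSMUSG00000037465) at chr15:38291463-38300706 (minus) and Klf13 (ENSMUSG00000052040) at chr7:63886351-63938915 (minus). Klf3 overlaps C230096K16Rik on its own strand, listed at up to 20.51 TPM, and Gm20033 on the other, at up to 8.7 TPM. Klf13 overlaps 2 genes on the other strand, at up to 4.88 TPM. Whether counting used strand is not given in the sources used here, so small parts of the Klf3 and Klf13 values could belong to these neighbours.

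Read depth, estimated from the steps between low TPM values, differed between groups: relative to liver it was 1.64 in lung, 2.45 in spleen, 3.32 in bone marrow, 4.37 in lymph node and 4.66 in blood. The 12 T cell markers were present in every group, but their summed TPM was lowest in blood (2727.6 to 2800.0) and highest in lymph node (7024.1 to 7063.9). Foxp3, which defines the sorted cells, had mean TPM from 88.7 in blood to 238.5 in lymph node. Other cells' markers moved with organ. The 12 myeloid markers summed to 38.6 to 77.4 TPM in lymph node, where 6 of 12 reached 1 TPM, 157.9 to 372.2 in liver, 608.1 to 749.1 in spleen, 1673.9 to 1724.7 in lung, 27231.7 to 27999.4 in blood and 39432.5 to 39713.9 in bone marrow. Genes of the immediate early and dissociation response (18 genes, all at 1 TPM or more in liver, lung, bone marrow and blood) summed to 1775.7 to 1803.3 TPM in lymph node, 2202.2 to 2223.1 in spleen, 4819.3 to 5049.4 in blood, 6538.6 to 7108.9 in lung, 9903.5 to 10034.4 in bone marrow and 14128.2 to 15833.5 in liver. The part of these cells and of handling in the results below was not tested. The 6 platelet markers summed to 2697.9 to 2811.1 TPM in blood and to at most 81.6 elsewhere, and the 4 lung epithelium markers to 220.7 to 291.1 TPM in lung and to at most 1.6 elsewhere. The 7 CD8 and natural killer markers summed to 532.1 to 595.9 TPM in blood and to at most 246.8 elsewhere, and Ncr1, a natural killer receptor, had a mean of 49.4 TPM in blood and at most 3.07 elsewhere. The CD8 genes of this list were highest in lymph node, with Cd8a at 18.8 and Cd8b1 at 29.0 TPM, against 12.8 and 19.6 in blood. The 5 B cell markers summed to 524.7 to 546.1 TPM in blood, 447.6 to 508.9 in spleen and 449.3 to 479.8 in bone marrow. In lymph node they summed to 126.4 to 136.2 TPM, in lung to 99.3 to 145.0 and in liver to 45.1 to 96.3. The 6 vessel wall markers summed to 171.8 to 186.4 TPM in blood and 75.5 to 139.9 in the other organs. Most of this was Pecam1, which T cells also express and which had means of 68.5 to 122.6 TPM, with Vwf at 75.9 TPM in blood and Egfl7 at 12.6 TPM in liver. Cdh5 reached a mean of 2.08 TPM and Kdr 5.16 TPM at most, both in liver, and Tek was at 0 in spleen, lymph node, lung and blood. In blood, Cdh5 and Kdr had means of 0.10 and 0.51 TPM and Egfl7 was at 0. Pecam1, at 103.4 TPM in blood, lay within the range of the other organs. The higher sum in blood was thus mainly Vwf, which had means of at most 7.99 TPM elsewhere. Its source was not tested.

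**Figure D1:**
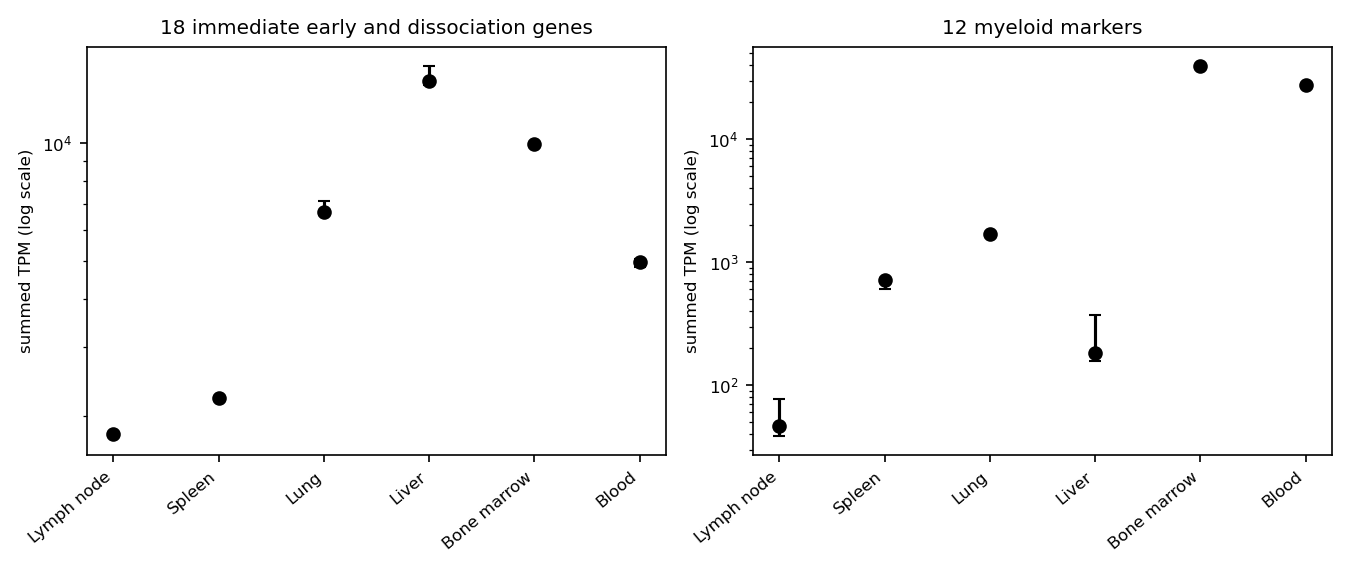
Summed TPM (log axis) of the 18 immediate early and dissociation genes (left) and of the 12 myeloid markers (right) in each organ. Points are the median of 3 libraries and bars run from the lowest to the highest. The early response sum is lowest in lymph node and highest in liver, and the myeloid sum is lower in liver (157.9 to 372.2) than in spleen (608.1 to 749.1).

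All 7 genes differed between organs, and their summed TPM was about 3-fold lower in spleen and lymph node than in liver, bone marrow and blood. Their summed level was 428.7 ± 23.5 TPM in spleen (SD, n = 3 here and below), 425.2 ± 5.6 in lymph node, 886.1 ± 24.8 in lung, 1302.3 ± 35.9 in blood, 1323.2 ± 19.4 in bone marrow and 1384.7 ± 45.2 in liver. Klf2 was the most abundant member in every group, with 38.7% of the sum in lung to 58.6% in bone marrow. The sum follows the abundant genes most, and not every member moved with it. Against lymph node, Klf13 was lower in liver (-0.587, adjusted p = 0.000428 by limma) and Klf10 did not pass the test there (0.077, adjusted p = 0.85). The Klf6 share differed widely: it made up 12.3% of the sum in lymph node and 14.3% in spleen, behind Klf2, Klf3 and Klf13, and 36.6% in liver, 30.8% in lung, 23.4% in bone marrow and 19.4% in blood, second to Klf2 in each. In libraries made from whole sorted populations, fewer cells that express a gene and less RNA of it per cell cannot be told apart. With limma's F test over the 6 groups on log2(TPM + 1), 7 of 7 members passed an adjusted p of 0.05 (Benjamini-Hochberg), against 68.0% of the 16694 genes tested. Their median range of group means was 2.00 on the log2 scale, against 1.15 for all genes tested. The members and the lists below were chosen with earlier results of these data known. Comparisons of their ranges and shares with all genes are therefore descriptions, here and below.

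**Figure D2:**
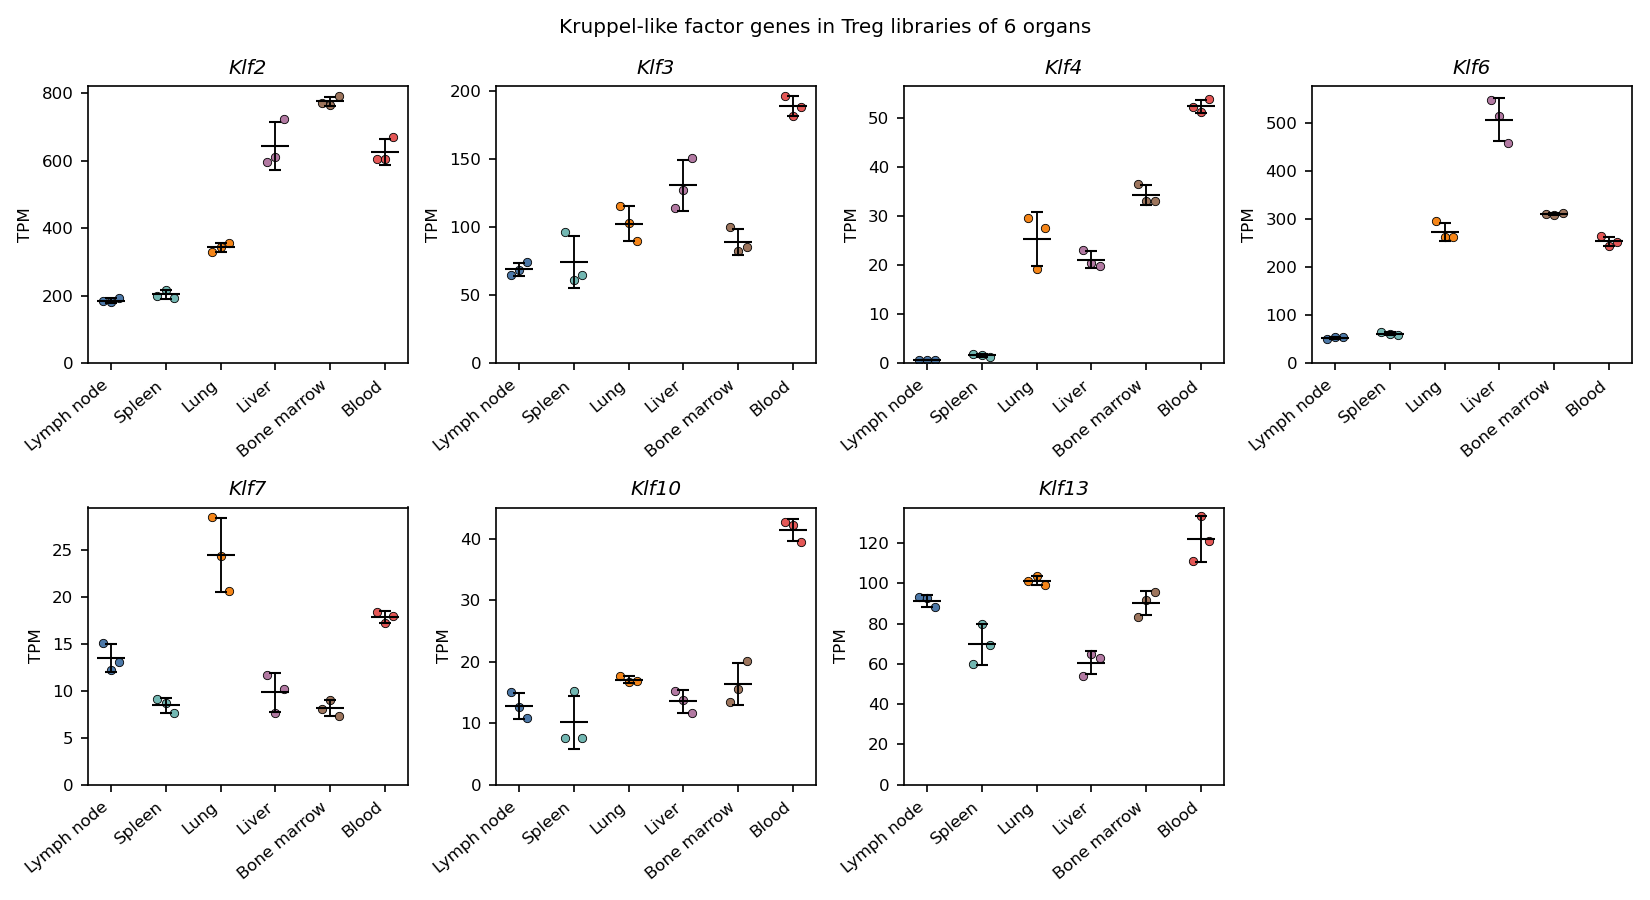
TPM of the 7 genes in each library (points), with the mean and SD of 3 libraries per organ (lines and bars). Klf2, Klf4 and Klf6 are lowest in lymph node and spleen, while Klf3, Klf10 and Klf13 are highest in blood and Klf7 in lung.

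Klf2, the quiescence and trafficking factor, was highest in bone marrow and 4.18-fold lower in lymph node. Its TPM was 771.2, 766.1 and 790.5 in the 3 bone marrow libraries, 594.5, 611.25 and 723.5 in liver, and 604.9, 604.45 and 671.35 in blood. Lung libraries stood at 328.2, 342.6 and 357.3, spleen at 199.9, 217.2 and 193.3, and lymph node at 184.9, 179.6 and 191.8. Liver and blood overlapped, and every library of these and of bone marrow lay above every lung library, which in turn lay above spleen and lymph node. Bone marrow exceeded lymph node by 2.06 ± 0.07 on the log2(TPM + 1) scale (SE, adjusted p = 3.48e-12 by limma), and liver exceeded spleen by 1.65 (adjusted p = 4.85e-11). Lung exceeded spleen by 0.75 (adjusted p = 3.31e-07). Spleen against lymph node missed the threshold (0.13 higher in spleen, adjusted p = 0.257) although their libraries did not overlap, and all 3 scalings called it (adjusted p = 0.0119 with T cell genes, 0.00557 with median ratios and 0.0399 with abundant classes removed). Liver and blood did not differ beyond their spread (0.03, adjusted p = 0.757). The bone marrow lead over liver (0.28, adjusted p = 0.00581) was lost with median-ratio scaling of the libraries (adjusted p = 0.23). Klf2 rested on an estimated 1948 to 12453 reads per library, so counting error was small.

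Klf4, which acts in T cells and in monocytes, had the widest range of the 7. It was lowest in lymph node, at 0.70, 0.66 and 0.66 TPM, and low in spleen, at 1.89, 1.66 and 1.24. It was at 23.1, 20.5 and 19.8 in liver, 29.5, 19.1 and 27.5 in lung, 36.6, 33.0 and 33.1 in bone marrow, and 52.2, 51.3 and 53.9 in blood. The 6 libraries of spleen and lymph node all lay below the other 12, with no overlap. The blood mean was 77.9-fold the lymph node mean (52.4 ± 1.3 against 0.673 ± 0.023 TPM). The difference was 4.997 ± 0.156 on the log2(TPM + 1) scale (adjusted p = 1.05e-12), which understates the change of so low a gene. Liver exceeded spleen by 3.10 (adjusted p = 5.31e-10) and lung exceeded spleen by 3.33 (adjusted p = 1.01e-10). The lymph node values rested on an estimated 19 to 23 reads per library and the spleen values on 23 to 32, against 1712 to 1869 in blood. Myeloid marker sums were high in blood and bone marrow, as Klf4 was, though their sum was higher in bone marrow and Klf4 in blood. By gene, 7 of the 12 myeloid markers had higher means in blood than in bone marrow, as Klf4 had. Lyz2 (7469 against 2809 TPM) and Csf1r (205.7 against 24.8 TPM) were among them. The remaining 5, among them S100a8 and S100a9, had higher means in bone marrow. In liver, 12 of 12 myeloid markers had lower means than in spleen, while Klf4 was higher. The part of myeloid RNA in the Klf4 values was not tested.

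Within the higher organs, blood led bone marrow for Klf4 by 0.60 (adjusted p = 0.00745), and lung and liver did not differ beyond their spread (0.23, adjusted p = 0.269). The lung libraries spread most, with replicate 2 at 19.1 TPM, below the other two lung libraries and below all 3 liver libraries. Without that library, lung exceeded liver by 0.42 (adjusted p = 0.032). The higher level in bone marrow than in lung (0.44, adjusted p = 0.0325) was lost when lung replicate 2 (adjusted p = 0.156) or bone marrow replicate 1, 2 or 3 was left out (adjusted p = 0.107, 0.0621 and 0.0618). Its adjusted p ran from 0.00371 to 0.271 over the 28 alternatives run. Spleen exceeded lymph node by 0.63 (adjusted p = 0.0127), and this call was lost without spleen replicate 1 (adjusted p = 0.0549) and when the bone marrow and blood groups were left out of the fit (adjusted p = 0.123).

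Klf6, an early-induced factor, was highest in liver and 9.65-fold lower in lymph node. The liver libraries held 547.0, 513.05 and 458.2 TPM, all above every other library. Bone marrow held 309.0, 307.3 and 311.8, lung 294.5, 261.8 and 261.9, and blood 263.3, 244.2 and 251.4. Spleen held 65.2, 60.9 and 57.75, and lymph node 49.9, 54.3 and 53.2, so these organs lay below the others with no overlap. Liver exceeded lymph node by 3.24 ± 0.07 on the log2(TPM + 1) scale (adjusted p = 1.21e-14), spleen by 3.02 (adjusted p = 5.85e-14) and bone marrow, the next in order, by 0.70 (adjusted p = 1.25e-06). Blood, the lowest of the higher organs, still exceeded spleen by 2.03 (adjusted p = 4.76e-12). Lung and blood overlapped and did not differ beyond their spread (0.11, adjusted p = 0.245).

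The smaller steps in the Klf6 order were less firm. Bone marrow exceeded lung by 0.18 (adjusted p = 0.0466), but 17 of 28 alternatives ended that call, among them leaving out any 1 of 12 libraries (spleen replicate 2, lung replicates 2 and 3, and any library of lymph node, bone marrow or blood, adjusted p = 0.051 to 0.134). Spleen against lymph node missed the threshold narrowly (0.22 higher in spleen, adjusted p = 0.0502) and passed it in 12 of 29 alternatives, 5 of them on leaving out 1 library (spleen replicate 3, liver replicate 1 or 3, or lung replicate 1 or 3, adjusted p = 0.0244 to 0.0489). Klf6 had the order of the early response sum at both ends, lowest in lymph node and highest in liver. The genes in that sum did not all share its order. Hspa1a and Hspa1b had means of 1495 and 2470 TPM in liver and 146 and 315 TPM in bone marrow. Fos, Fosb, Egr1, Egr2, Ier2, Ier3, Dusp1, Btg2 and Zfp36 had higher means in bone marrow than in liver. The rest of the list had lower ones there. Nr4a1, an early gene of T cell stimulation, likewise had means of 3290 TPM in liver and 215 and 237 TPM in spleen and lymph node. Egr1 and Egr2, also on the early list, went otherwise. Egr1 had means of 38.4, 29.5 and 38.9 TPM in liver, spleen and lymph node, and Egr2 of 4.48, 20.6 and 18.4. The part of the early response in the Klf6 values was not tested.

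Klf3, the CtBP-recruiting repressor, was highest in blood, at 196.5, 181.8 and 187.9 TPM. Liver held 113.7, 126.9 and 150.9, lung 115.4, 102.6 and 89.5, and bone marrow 99.7, 82.1 and 85.0. Lymph node held 64.4, 68.7 and 74.1, and spleen 96.5, 61.2 and 65.1. Every blood library lay above all 15 others, while neighbouring organs below liver overlapped. Blood exceeded lymph node by 1.44 ± 0.15 (adjusted p = 1.24e-06), spleen by 1.36 (adjusted p = 2.51e-06) and liver by 0.54 (adjusted p = 0.00959, lost with library weights at 0.0669). Spleen replicate 1, at 96.5 TPM, lay well above the other spleen libraries and set several outcomes. Without it, Klf3 was also called higher in bone marrow than in spleen (adjusted p = 0.0129) and than in lymph node (adjusted p = 0.034), and lower in lung than in liver (adjusted p = 0.0298). The lung lead over spleen (0.48, adjusted p = 0.0179) was lost without spleen replicate 2 or 3 or lung replicate 1 (adjusted p = 0.0933, 0.0763 and 0.076), and the liver lead over bone marrow (0.54, adjusted p = 0.0109) was lost without liver replicate 3 (adjusted p = 0.0507), with library weights (adjusted p = 0.0636) and with T cell scaling, where it changed to -0.09 for bone marrow minus liver (adjusted p = 0.662).

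Klf10, the TGF-beta-inducible factor, stood apart in blood alone among the 6 organs. Its TPM was 42.7, 42.3 and 39.5 in blood and 7.56 to 20.1 over the other 15 libraries, with no overlap. Blood exceeded spleen by 2.00 ± 0.22 (adjusted p = 2.01e-06), lymph node by 1.63 (adjusted p = 1.73e-05), liver by 1.56 (adjusted p = 2.72e-05), lung by 1.23 (adjusted p = 0.000228) and bone marrow by 1.30 (adjusted p = 0.000225). The other organs overlapped along their order of lung, bone marrow, liver, lymph node and spleen, and no neighbours in it passed the test (adjusted p = 0.32 to 0.85). Lung was steady at 17.7, 16.7 and 16.8 TPM. Spleen was not, at 7.60, 15.2 and 7.56, with replicate 2 near 2-fold the others. Lung exceeded spleen (0.77, adjusted p = 0.00986), but not without spleen replicate 1 or 3 (adjusted p = 0.052 and 0.0524). Bone marrow exceeded spleen (0.70, adjusted p = 0.0279), but not without spleen replicate 1 or 3 or bone marrow replicate 2 or 3 (adjusted p = 0.0606 to 0.135). Without spleen replicate 2, liver (adjusted p = 0.00518) and lymph node (adjusted p = 0.0209) were called higher than spleen too. The liver values rested on an estimated 89 to 124 reads per library. The platelet marker sum, the B cell marker sum and the joint sum of CD8 and natural killer markers were likewise highest in blood. Of the B cell markers, Pax5 had its highest mean in bone marrow (46.8 against 36.0 TPM in blood) and the rest in blood. Of the joint list, Gzma, Nkg7, Ncr1 and Klrb1c were highest in blood, Gzmb in lung, and Cd8a and Cd8b1 in lymph node. Of the 12 myeloid markers, 7 had higher means in blood than in bone marrow, among them Lyz2 (7469 against 2809 TPM) and Csf1r (205.7 against 24.8 TPM). The part of these cells in the blood values of Klf3, Klf10 and Klf13 was not tested.

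Klf13, known for Ccl5 activation, varied least, by 2.01-fold between its highest and lowest organ. It was at 111.3, 133.7 and 121.0 TPM in blood, 101.0, 103.7 and 99.2 in lung, and 93.1, 92.8 and 88.0 in lymph node. Bone marrow held 83.5, 91.6 and 95.5, spleen 59.7, 79.8 and 69.2, and liver 54.1, 64.9 and 62.8. Blood exceeded liver by 1.00 ± 0.10 (adjusted p = 9.13e-07) with no overlap, and liver, where Klf2 and Klf6 were high, was lowest with spleen (0.19 below spleen, adjusted p = 0.178). Neighbours among lung, lymph node and bone marrow did not pass the test (adjusted p = 0.27 and 0.96). The lung and lymph node libraries did not overlap, however. Lung was called higher with T cell scaling (adjusted p = 0.000261) and with median ratios (adjusted p = 0.00467). Blood against lung (0.26, adjusted p = 0.0489) was a call that 17 of 28 alternatives ended, 12 of them on leaving out 1 library (spleen replicate 3, blood replicate 2 or 3, or any library of lymph node, lung or bone marrow, adjusted p = 0.0526 to 0.196). Bone marrow exceeded spleen by 0.38 (adjusted p = 0.0126), and not without spleen replicate 1 (adjusted p = 0.0706) or bone marrow replicate 3 (adjusted p = 0.0591). Lymph node exceeded spleen by 0.40 (adjusted p = 0.0158), and not without spleen replicate 1 (adjusted p = 0.0802) or lymph node replicate 1 or 2 (adjusted p = 0.0597 and 0.0576). Without spleen replicate 1, liver was called lower than spleen (adjusted p = 0.0429).

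Klf7, the Klf6 relative, was the only member highest in lung, at 28.4, 24.4 and 20.6 TPM. Blood held 18.4, 17.2 and 17.97, lymph node 15.1, 12.2 and 13.01, and liver 11.7, 7.62 and 10.1. Spleen held 9.10, 8.69 and 7.57 and bone marrow 8.08, 9.01 and 7.34, and these overlapped. Lung exceeded spleen by 1.42 ± 0.16 (adjusted p = 3.46e-06), liver by 1.24 (adjusted p = 2.28e-05) and lymph node by 0.81 (adjusted p = 0.000775), and bone marrow differed from lung by -1.47 (adjusted p = 2.29e-06). Blood lay 0.42 below lung without overlap (adjusted p = 0.0454), but 18 of 28 alternatives changed this, 13 of them on leaving out 1 library (spleen replicate 1 or 2, lung replicate 1 or 2, or any library of lymph node, bone marrow or blood, adjusted p = 0.0512 to 0.164), and scaling to T cell genes turned it round. Klf7 was higher in lymph node than in spleen (0.61, adjusted p = 0.019), a call lost without spleen replicate 3 or lymph node replicate 1 or 3 (adjusted p = 0.0757, 0.0947 and 0.0531). Leaving out liver replicate 1 or lung replicate 1 or 3 added a call of lymph node over liver (adjusted p = 0.0188 to 0.0449), and leaving out liver replicate 1 or 2 added one of blood over lymph node (adjusted p = 0.0496 and 0.0382).

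**Figure D3:**
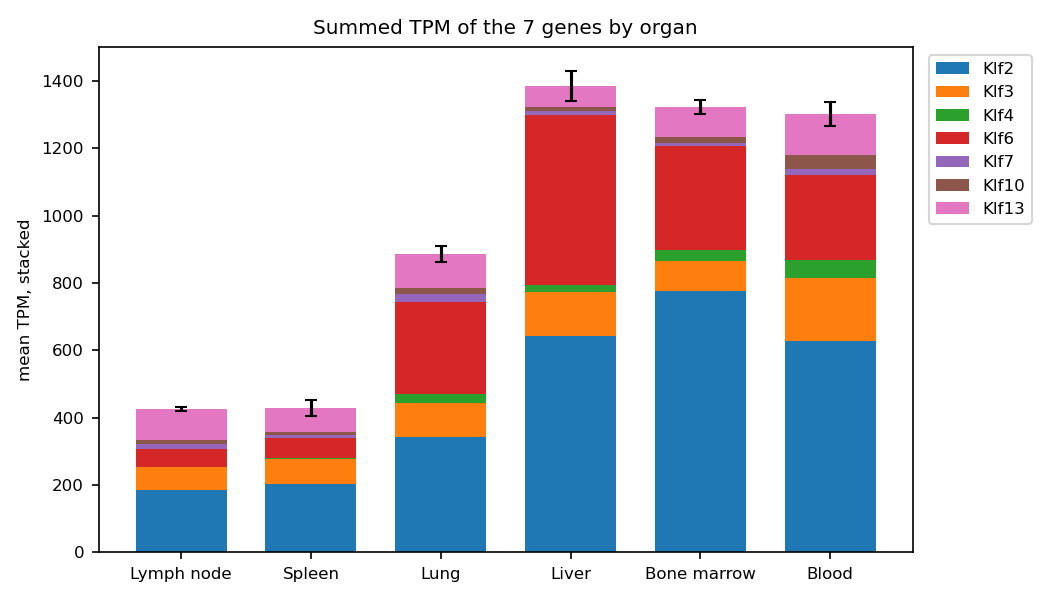
Mean TPM of the 7 genes stacked by organ, with the SD of the summed TPM over 3 libraries as bars. The stack reaches 425.2 TPM in lymph node and 428.7 TPM in spleen and lies between 1302.3 and 1384.7 TPM in blood, bone marrow and liver, and the Klf6 segment is largest in liver.

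A ratio of 2 members within a library does not move with the scale of the library, and shows that the members did not change in parallel. Klf2 TPM was 3.07 to 3.57 times that of Klf6 in spleen and 3.31 to 3.71 times in lymph node. It was only 1.09 to 1.58 times in liver and 1.11 to 1.36 in lung, with bone marrow (2.49 to 2.54) and blood (2.30 to 2.67) between and no overlap with either pair. The Klf2 to Klf4 ratio fell from 264 to 291 in lymph node and 106 to 156 in spleen to 25.8 to 36.6 in liver, 21.1 to 23.9 in bone marrow, 11.1 to 17.9 in lung and 11.6 to 12.5 in blood. Klf2 stood at 9.42 to 11.5 times Klf13 in liver and 8.28 to 9.24 times in bone marrow, but at 1.94 to 2.18 times in lymph node and 2.72 to 3.35 in spleen. Klf6 was below Klf3 in all 6 libraries of spleen (0.675 to 0.994) and lymph node (0.719 to 0.790), and above it in the other 12, from 1.34 in blood to as much as 4.81 in liver. These ratios are a description, with no test.

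**Figure D4:**
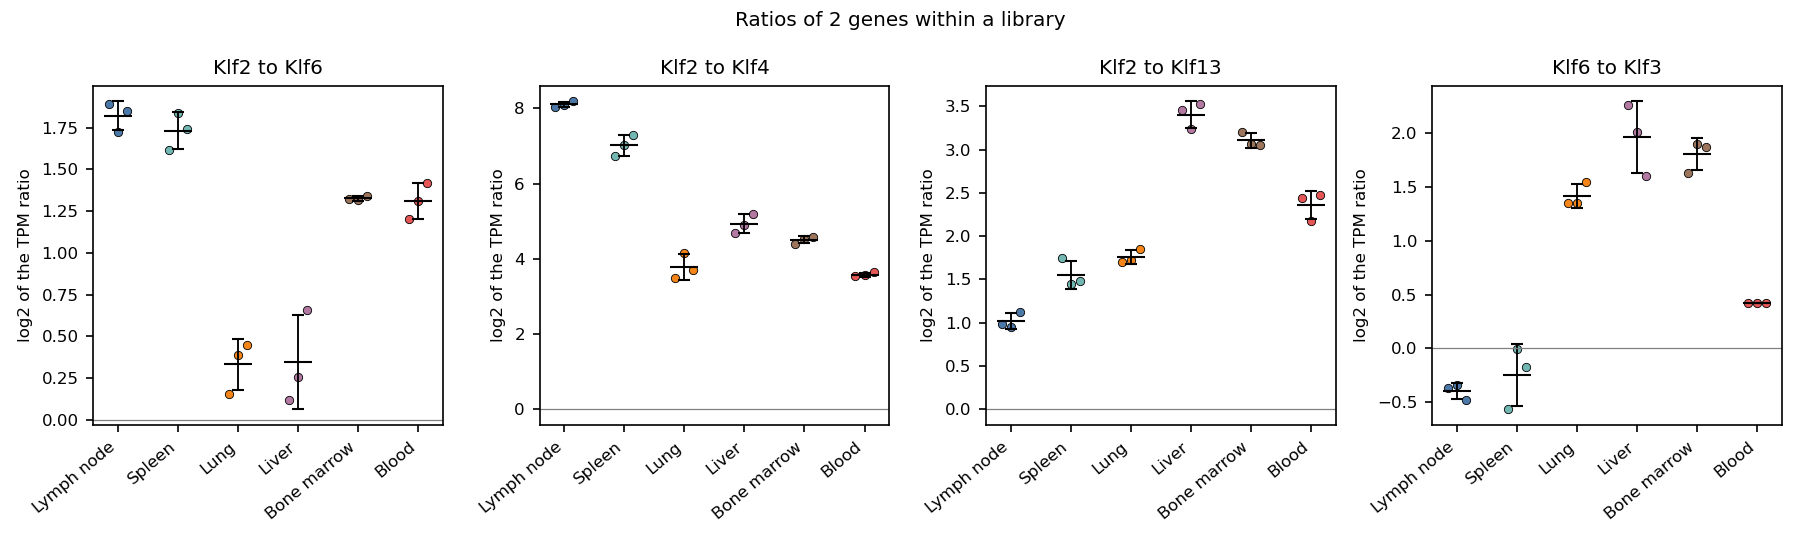
Log2 of the TPM ratio of 2 members within each library (points), with the mean and SD per organ. Klf2 to Klf6 is lowest in lung and liver, Klf2 to Klf4 is highest in lymph node and spleen, and Klf6 to Klf3 lies below 0 in lymph node and spleen and above 0 elsewhere.

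Set against the T cell markers in place of the whole library, blood levels rose the most. Each library was multiplied by a factor that makes the geometric mean of the 12 T cell genes equal, which was 0.73 in lymph node, 0.83 to 0.84 in spleen, 0.82 to 0.85 in liver, 0.94 to 1.02 in lung, 1.13 to 1.16 in bone marrow and 1.74 to 1.77 in blood. On this scale Klf2 had means of 1102 in blood, 887.8 in bone marrow and 536.5 in liver, with 135.1 in lymph node, so blood took the first place from bone marrow. Klf6 stood at 445.0 ± 19.5 in blood and 421.4 ± 33.2 in liver, which no longer differed (0.08, adjusted p = 0.339). Klf4 means were 0.49 in lymph node, 1.33 in spleen, 17.6 in liver, 25.1 in lung, 39.2 in bone marrow and 92.2 in blood. Klf10 reached 73.0 and Klf3 332.0 in blood, against at most 18.8 and 108.9 in any other organ, and Klf13 reached 214.5 against at most 103.2.

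This scaling moved all genes, so it says little of the members alone. The median of all genes tested went from 0.00 to 0.88 (log2) for blood against spleen and from 0.07 to 0.98 for blood against liver, and the share of calls that were higher in blood went from 56.9% to 96.8% and from 59.1% to 94.3%. Relative to that median, Klf2 was 0.06 higher in blood than in liver and Klf6 differed by -0.90, close to their differences on the TPM scale (-0.03 and -0.99). Klf10 was 1.62 above the median of all genes for blood against liver, and Klf4 4.45 above it for blood against spleen. Subtracting that median takes most of the scaling factor out again, so values near the TPM differences follow from the arithmetic. Klf2, Klf4 and Klf6 were higher in liver, lung, bone marrow and blood than in spleen and in lymph node on TPM and under all 3 scalings run.

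**Figure D5:**
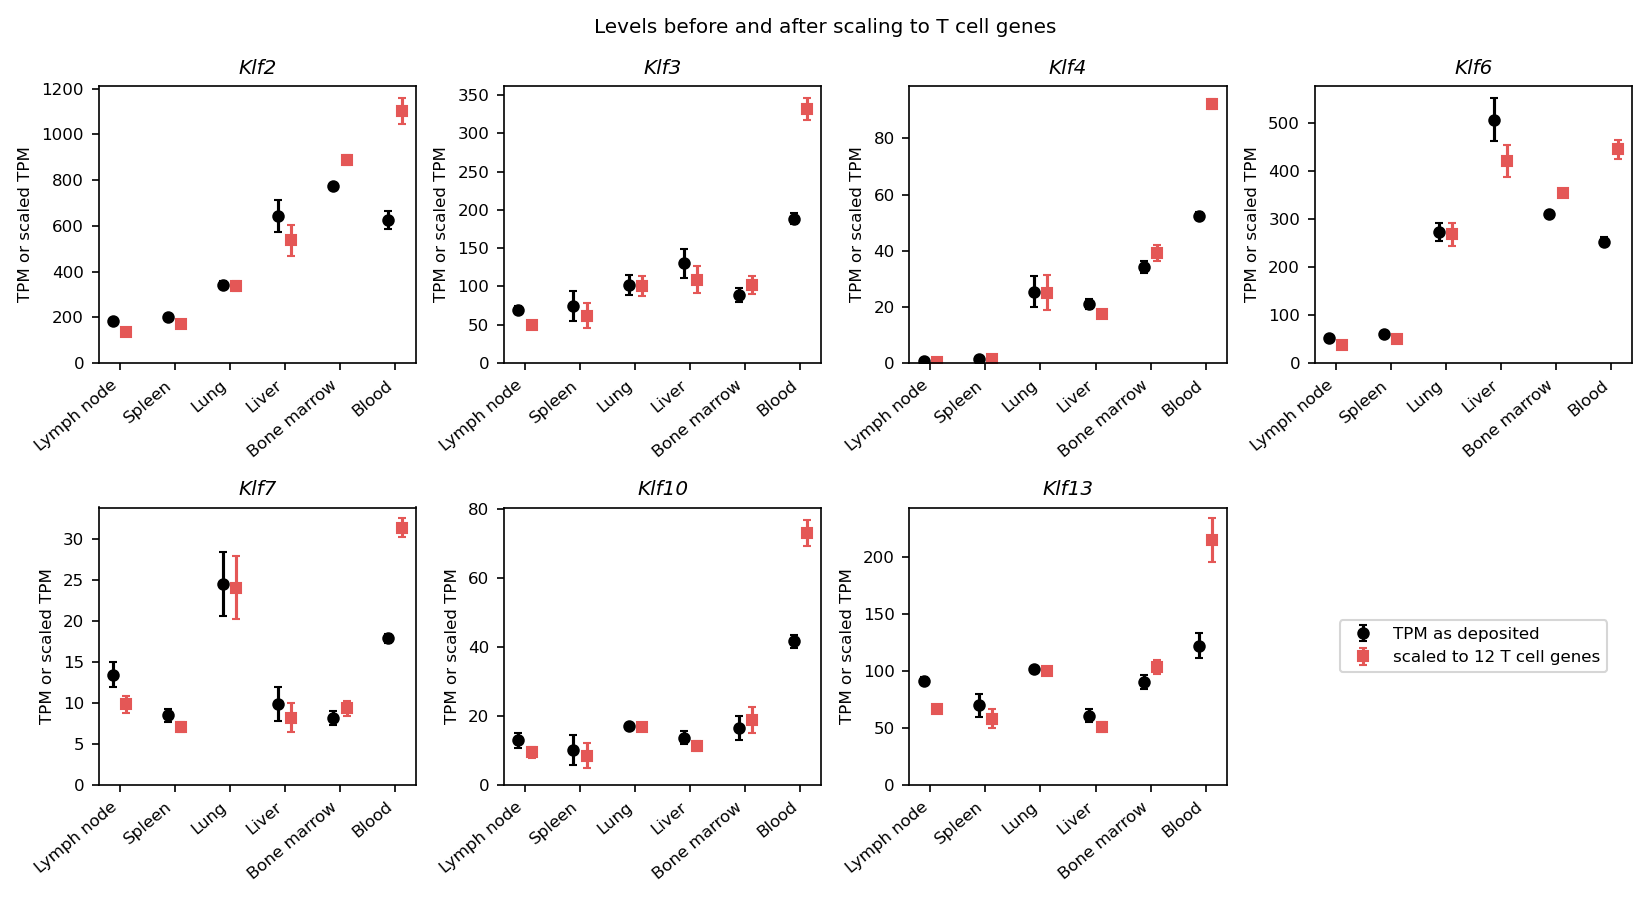
Mean and SD (3 libraries) of each member by organ, as deposited TPM (black circles) and after scaling every library to 12 T cell genes (red squares). Blood rises for every member, so that Klf2 and Klf6 become highest in blood, while spleen and lymph node stay lowest for Klf2, Klf4 and Klf6.

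Between pairs of organs, 78 of the 105 member comparisons passed limma's test, against 33.8% of all gene comparisons, with the members chosen as said above. Of the 78, 76 had no overlap of the libraries. The share without overlap was not computed over all genes, so no result is read from that count. These contrasts share libraries and are not independent of each other. Klf4 was called in 14 of 15 contrasts, Klf2 and Klf6 in 13 each, Klf13 in 11, Klf3 and Klf7 in 10 each and Klf10 in 7. Of the 78 calls, 60 held in every alternative run and 18 were changed by at least 1.

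Against spleen, 7 members were higher in blood (35.4% of all genes were called in either direction) and 7 in lung (40.8%). In liver 4 were higher (31.3%), namely Klf2, Klf3, Klf4 and Klf6. In bone marrow 5 were higher (24.1%), namely Klf2, Klf4, Klf6, Klf10 and Klf13, of which Klf10 and Klf13 were lost with 2 of the 3 scalings and without bone marrow replicate 3, leaving 3. No member was called lower than in spleen by limma in these 4 comparisons, nor was any lower at an unadjusted p of 0.05. The members' median difference was 1.62 in blood, 0.77 in lung, 0.82 in liver and 0.70 in bone marrow, against 0.00, -0.08, -0.06 and 0.14 for all genes. Lymph node against spleen gave 3 calls (14.3% of all genes), with Klf7 and Klf13 higher and Klf4 lower in lymph node. It fell to 1 call without spleen replicate 1 or lymph node replicate 1. Under each of the 3 scalings the calls were instead Klf2, Klf4 and Klf6, all lower in lymph node, and 69.0% of all calls being higher in lymph node became 32.9% with T cell scaling.

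Against lymph node, 6 members were higher in blood (37.4% of all genes called), all but Klf7, and 5 were higher in lung (42.3%), all but Klf10 and Klf13. With T cell scaling and with median-ratio scaling, all 7 were called higher in blood and all 7 in lung. Median ratios gave Klf7 in blood 0.618 (adjusted p = 0.00746), and in lung Klf10 0.652 (adjusted p = 0.0268) and Klf13 0.416 (adjusted p = 0.00467). With abundant classes removed the counts stayed at 6 and 5. Liver had Klf2, Klf3, Klf4 and Klf6 higher and Klf13 lower (31.1%). Bone marrow had Klf2, Klf4 and Klf6 higher and Klf7 lower (22.5%), and with T cell scaling 6 were higher and Klf7 was not called. The members' medians were 1.63 in blood, 0.81 in lung, 0.90 in liver and 0.36 in bone marrow, against -0.15, -0.20, -0.19 and 0.00 for all genes.

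Among the other 4 organs the members went both ways. Lung against liver gave Klf7 and Klf13 higher and Klf2 and Klf6 lower in lung (34.9% of all genes called). Bone marrow against liver gave Klf2, Klf4 and Klf13 higher and Klf3 and Klf6 lower in bone marrow (34.5%). Blood against liver gave Klf3, Klf4, Klf7, Klf10 and Klf13 higher and Klf6 lower in blood (39.4%). Bone marrow against lung gave Klf2, Klf4 and Klf6 higher and Klf7 lower (43.5%), falling to 2 calls, Klf2 and Klf7, without lung replicate 2 or bone marrow replicate 1, 2 or 3. With median-ratio scaling this contrast had Klf2 higher and Klf3, Klf7 and Klf13 lower in bone marrow. Blood against lung gave 5 higher, Klf2, Klf3, Klf4, Klf10 and Klf13, and Klf7 lower (43.7%). Blood against bone marrow gave all 7 called, Klf3, Klf4, Klf7, Klf10 and Klf13 higher and Klf2 and Klf6 lower in blood (31.8%). With T cell scaling Klf2 and Klf6 turned higher in blood than in bone marrow (0.31 and 0.33, adjusted p = 0.00322 and 0.00166). Median-ratio scaling lost both calls (-0.116 and -0.097, adjusted p = 0.25 and 0.358), and both held with abundant classes removed (adjusted p = 0.00536 and 0.0152).

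The rest of the family did not share the pattern in full. Of 20 other KLF and SP genes, 19 were in the tables, 12 reached a mean of 1 TPM in some group, and 10 of those 12 passed the F test (68.0% of all genes did), with a median range of 1.16. Klf1, the erythroid factor, was at 28.1 ± 1.6 TPM in bone marrow, 3.35 ± 1.06 in spleen and at most 0.123 on average in the other organs. In bone marrow the 6 erythroid markers summed to 6314.5 to 6502.3 TPM, and in liver to 10931.5 to 11968.8 TPM, where Klf1 was listed at 0 in all 3 libraries. Klf11, the closest relative of Klf10, was highest in lung, at 16.6 ± 4.0 TPM, and lowest in lymph node, at 2.01 ± 0.25, and so unlike Klf10 not highest in blood, where it was at 7.18 ± 0.62. Sp1 and Sp3, broadly expressed activators that bind similar GC-rich DNA, had the smallest ranges, with means of 32.7 to 52.0 and 83.0 to 127.1 TPM. Klf8 and Klf9 did not pass (adjusted p = 0.104 and 0.0583). Against spleen, 5 of the 12 were higher and 1 lower in liver, 5 higher and 3 lower in lung, 7 higher in bone marrow, and 4 higher and 2 lower in blood (31.3%, 40.8%, 24.1% and 35.4% of all genes were called in either direction). T cell scaling gave 11 higher in bone marrow and 10 higher and 1 lower in blood.

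A list of 16 genes linked to Kruppel-like factors held T cell traffic and cell cycle genes, Ccl5, and genes of TGF-beta signalling and of protein turnover. All 16 passed the F test (68.0% of all genes did), with a median range of 1.49 against 1.15 for all genes. S1pr1, the exit receptor driven by KLF2, had means of 501.2 ± 20.6 TPM in lung, 283.8 ± 28.4 in liver, 222.1 ± 3.3 in blood, 209.3 ± 3.3 in lymph node, 195.7 ± 4.1 in bone marrow and 164.2 ± 5.8 in spleen (adjusted p = 3.29e-11 by limma's F test). Its peak was in lung, where Klf2 was at 342.7 ± 14.5 TPM, and not in bone marrow, where Klf2 was highest. Cdkn1a, a cell cycle inhibitor, ran from 5.70 ± 1.99 TPM in spleen to 103.8 ± 16.1 in lung, and Ccr7, the lymph node homing chemokine receptor, from 41.9 ± 2.6 in bone marrow to 574.7 ± 8.5 in lung. S1pr4 and Tgfb1 had the smallest ranges, 96.1 to 148.5 and 116.9 to 194.9 TPM. Against spleen, 12 of the 16 were higher and 1 lower in liver, 10 higher in lung, 11 higher and 2 lower in bone marrow, and 12 higher and 2 lower in blood (31.3%, 40.8%, 24.1% and 35.4% of all genes called). The bone marrow count fell to 8 higher with median-ratio scaling and with abundant classes removed.

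Known regulators and partners of Kruppel-like factors had a median range of 0.83, against 1.15 for all genes, and 17 of 20 passed the F test (68.0% of all genes did). Foxo1, which activates Klf2 in T cells, had means of 70.4 ± 2.7 TPM in lung, 67.5 ± 0.6 in lymph node, 49.9 ± 3.0 in spleen, 43.1 ± 0.2 in liver, 42.4 ± 0.8 in blood and 40.4 ± 1.3 in bone marrow (adjusted p = 5.51e-08 by limma's F test), and so was lowest in TPM in the 3 organs where Klf2 was highest. This order depends on the scale. With T cell scaling all 20 genes of this list, Foxo1 among them, were called higher in blood than in lymph node. Ctbp2, a corepressor that KLF3 recruits, was at 13.95 ± 1.18 TPM in blood and 0.203 ± 0.162 in lymph node, the same ends of the order as Klf3. In the 3 spleen libraries it was at 0.19, 0.26 and 3.73 TPM. Ctbp1, the other CtBP gene of the list, was more abundant and did not have these ends. Its mean was highest in lymph node, at 220.5 ± 13.5 TPM, with 145.7 ± 13.2 in blood. Mef2c ran from 5.13 ± 1.30 in lymph node to 31.1 ± 1.4 in blood. Sin3b had the smallest range (0.41 on the log2 scale), followed by Mapk7 (0.59), a kinase upstream of MEF2 and Klf2 that did not pass limma's F test (adjusted p = 0.367). Map2k5 and Ctbp1 did not pass it either (adjusted p = 0.165 and 0.0716). Against spleen, 5 of the 20 were higher and 6 lower in liver, 6 higher and 4 lower in lung, 6 higher and 2 lower in bone marrow, and 7 higher and 3 lower in blood, with the same shares of all genes called as above. Median-ratio scaling gave 5 lower in bone marrow, and T cell scaling gave 12 higher and none lower there and 18 higher and none lower in blood, with all genes shifted as above.

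Genes whose pattern was most like each member's were ranked by Pearson correlation of log2(TPM + 1) over the 18 libraries among 9447 candidates. The libraries share their organ, depth and cell make-up, so these correlations describe 6 groups of 3 more than 18 separate points. Klf2 was closest to Dusp1 (0.978), Rhob (0.975) and Zfp36 (0.972). Dusp1 and Zfp36, a phosphatase and an RNA-decay factor of the early response, are on the list of 18 early genes, and Dusp1 had means of 115.6 TPM in lymph node and 1201 TPM in bone marrow. Klf4 was closest to Cebpb (0.982), a myeloid and early response factor, to Lilrb4a (0.976), which encodes an inhibitory receptor, and to Lilr4b (0.975), which encodes a related receptor. Klf6 was closest to Cxcr4 (0.974), Ccr3 (0.965) and S100a4 (0.963). Klf3 was closest to Ehd4 (0.932), Tmem71 (0.917) and Ctla2a (0.914), and Klf7 to Ssh2 (0.952), Tnfrsf1b (0.947) and Usp12 (0.945). Klf10 was closest to Mbnl2 (0.931), which fell to rank 298 by Spearman correlation, Ticam2 (0.930) and Mcl1 (0.928). Klf13 was closest to Zfp518a (0.944), Cerk (0.937) and Pip5k1c (0.913).

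Over the 18 libraries Klf2, Klf4 and Klf6 were correlated at 0.902 (Klf2 and Klf4), 0.904 (Klf4 and Klf6) and 0.895 (Klf2 and Klf6). Klf10 and Klf13 were correlated at 0.758. Klf3, highest in blood like these, was closer to Klf4 (0.761), Klf10 (0.699), Klf2 (0.663) and Klf6 (0.662) than to Klf13 (0.283). Klf2 and Klf7 stood at -0.096, and Klf6 and Klf13 at -0.001. With T cell scaling, which lifts every gene in blood, the lowest of the 21 correlations was 0.449.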

How the data were processed

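Polyadenylated RNA of sorted Treg cells was sequenced in 18 libraries, 3 per organ. For each library the authors deposited TPM values by Ensembl gene ID. Reads were processed with STAR and RSEM on mm10, per the submitters' processing notes, and versions, filters and the strand setting are not given in the sources used here. TPM keeps no total count, so relative depth was estimated from the smallest TPM steps of 12107 genes with 1 transcript, where 70.0% to 89.8% of low values lay within 0.1 of a whole number of reads. Such estimates assume the longest transcript, and their number limits the precision. Symbols came from GENCODE M21 (55141 of 55487 IDs).

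The 16694 genes whose mean reached 1 TPM in some group were fitted with limma 3.58.1 in R 4.3.3 on log2(TPM + 1), 1 mean per group over all 18 libraries, with trend and robust settings. Adjusted p-values are Benjamini-Hochberg values over all genes tested, within the F test or within each of 15 contrasts, called under 0.05. Fold changes on this scale understate the change of low genes. The fit was tested on simulated data. An exact permutation test of 3 against 3 cannot go below p = 0.1 and was not used. Ratios, correlations and motif matches are descriptions. The members and gene lists were chosen with earlier results of these data known. Named beside the members were the 3 genes most like each one (mean of 10 TPM in at least 1 group, no predicted or receptor segment genes), the 2 with the largest and the 2 with the smallest range in each list, and S1pr1 and Foxo1. 1 further gene that the rule names is not reported here. Klf8, Klf9, Map2k5, Ctbp1 and the markers given with values were named after their values were seen. Alternatives covered the pseudocount (0.1), the filter (none, or 5 TPM), 3 scalings, library weights, plain variance settings, the replicate number as a block, the 2 groups alone and leaving out each library. Leaving out the bone marrow and blood groups was added after seeing the data. Klf10 and S1pr1 were not matched in the RefSeq promoter table.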

Additional observations from a re-analysis of the deposited data

How the results depend on the processing

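All 7 members passed the F test over the organs under every alternative run, and the total of 78 calls, the 10 family, 16 linked and 17 regulator genes stayed within 1.5 times. Counts per contrast moved further in 3 cases. Lymph node against spleen went from 3 members called to 0 without the bone marrow and blood groups, and to 1 at the lowest and 4 at the highest on leaving out 1 library (1 without spleen replicate 1 or lymph node replicate 1). Bone marrow against spleen went from 5 to 3 with median-ratio scaling and with abundant gene classes removed, and ranged from 3 (without bone marrow replicate 3) to 5 on leaving out 1 library. Bone marrow against lung went from 4 to 2 with abundant classes removed, and ranged from 2 (without lung replicate 2 or any bone marrow library) to 4. The cause was not tested.

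Scaling to the 12 T cell genes changed the sign of 12 differences, of which 5 passed the test on neither scale. The 7 called on at least 1 scale went (log2) as follows: Klf13 in bone marrow against lymph node to 0.62, Klf6 in blood against liver to 0.081, against lung to 0.73 and against bone marrow to 0.33, Klf2 in blood against liver to 1.04 and against bone marrow to 0.31, and Klf7 in blood against lung to 0.38. By its construction this raises every gene in blood, where the T cell genes were lowest. Median-ratio scaling turned Klf6 in bone marrow against lung to -0.035. No other direction of a called difference turned.

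With the replicate number as a block, the replicate block fit called 80 of 105 member comparisons in place of 78, with 103 unchanged and 2 added, and all 7 by F test. The numbers share no stated animal or batch, and same-numbered libraries did not deviate together (45 pairs, r from -0.034 to 0.03), so the block is not taken as a pairing. Depth limits Klf4 in lymph node and spleen most, at an estimated 19 to 32 reads per library, and Klf10 and Klf7 in liver (from 89 and 134 reads).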
